A study of Mus musculus with 12 samples.

Results

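Protein folding and clean-up outside the secretory pathway was followed through 44 genes: 30 encode cytosolic chaperones and co-chaperones, 13 encode mitochondrial chaperones, proteases and prohibitins, and 1, Hsf1, encodes the heat shock transcription factor. They were taken by gene symbol from a list grouped by what the products are known to do. The choice rule uses no measured value, but the list was drawn up with earlier results of these data known. All 44 were found among the 23282 rows of the deposited count table, and all 44 passed the filter on low counts that left 11857 genes to test. The median mean level of the members was 122 CPM (counts scaled to a common library size by edgeR), against 24.6 CPM for all genes tested.

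RNA from B cells of mouse spleens was read in 4 groups of 3 libraries. Per the labels the mice were 7-week-old wild-type C57BL/6 animals, while the series text calls them lupus-prone. The control group received nothing, and no vehicle injection is named. The ODN group received 50 µg of the class B CpG-ODN 1826 into the peritoneum on days 1 and 3, the IM156 group received 30 mg/kg of IM156 by that route on days 0 and 2, and the ODN+IM156 group received both. All spleens were taken on day 4. The CpG-ODN is a synthetic DNA that activates B cells through the endosomal receptor TLR9, and the series title names IM156 as a blocker of oxidative phosphorylation. The number of animals behind a library, their sex and any batch are not given in the sources used here, so p-values measure the spread between these samples, which may be technical.

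Cytosolic folding runs as a relay. HSP70 proteins bind newly made or unfolded chains with the help of J-domain proteins and nucleotide exchange factors, HSP90 and its co-chaperones finish kinases and receptors, and prefoldin hands actin and tubulin to the ring-shaped chaperonin CCT. Mitochondria import their proteins unfolded and refold them with their own HSP70 and with the HSP60 and HSP10 pair, and the AAA+ proteases of the matrix and inner membrane remove what fails to fold. Many of the cytosolic genes, and the HSP60 and HSP10 pair, are textbook targets of heat shock factor 1, and activated B cells are known to enlarge their protein-making machinery before they divide or secrete antibody.

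The libraries held 9650775 to 11532525 counts in total, and the ribosomal RNA row Rn45s took 1.46% of them in ODN replicate 2 against 4.78% to 9.63% in the other 11 libraries. The labelled cell type was visible in every group, with Cd79a, a signalling chain of the B-cell receptor, at a mean of 659.7 ± 73.1 (SD, n = 3) CPM in control and 636 ± 14.4 (SD, n = 3) CPM in ODN. Of 12 B-cell markers none was higher and 1 was lower in ODN than in control (edgeR's quasi-likelihood test, adjusted p below 0.05). All 20 listed genes of dividing cells were higher in ODN, and their summed level was 879 to 3074 CPM in the ODN libraries and 647 to 1017 CPM with both agents, against 326 to 587 CPM in control and 291 to 389 CPM with IM156 alone. Top2a, a topoisomerase of dividing cells, was at 104, 70.4 and 124 CPM in the 3 controls and at 859, 374 and 226 CPM in ODN. Mki67, another division marker, was at 46.5, 29.9 and 68.1 CPM in control and at 350.5, 144 and 94.5 CPM in ODN. All 8 platelet markers, 4 of 10 tested monocyte and macrophage markers, 2 of 3 NK-cell markers and 2 of 3 neutrophil markers were also higher in ODN. Of 8 tested dendritic-cell markers 1 was higher, and 5 of 9 erythroid markers were lower. Over all genes tested, 7.34% were called higher and 3.25% lower. The erythroid list summed to 690 to 886 CPM in control and 116 to 266 CPM in ODN. With IM156 alone it summed to 101 to 578 CPM, and with both agents to 75.7 to 146 CPM. The platelet list summed to 118 to 202 CPM in the ODN libraries and 111 to 158 CPM with both agents, against 30.1 to 46.8 CPM in control and 48.6 to 49.1 CPM with IM156 alone. The monocyte list summed to 103 to 227 CPM and 124 to 184 CPM in the former 2 groups, against 38.5 to 71.6 CPM and 42.2 to 78.7 CPM in the latter 2. The NK-cell list summed to at most 19.8 CPM and the T-cell list to at most 17.9 CPM in any library, and Cd3e, a defining part of the T-cell receptor, was at 0 CPM in 5 of the 12 libraries and at most at 0.398 CPM. Whether dividing or other cells have a part in the changes of the chaperone genes was not tested, and in sorted bulk RNA fewer cells of a type and less RNA per cell cannot be told apart.

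ODN raised 10 of the 44 genes and lowered none (edgeR's quasi-likelihood test, Benjamini-Hochberg adjusted p below 0.05 over all genes tested). Of all genes tested, 10.6% were called in this comparison, 7.34% as higher and 3.25% as lower. The 10 were the constitutive HSP70 gene Hspa8, the J-domain gene Dnajc7, the inducible HSP90 gene Hsp90aa1, the CCT subunits Cct2, Cct4, Cct5 and Tcp1, the prefoldin subunits Pfdn1 and Pfdn5, and the mitochondrial HSP10 gene Hspe1. Of the cytosolic members 9 of 30 (30%) thus rose, and of the mitochondrial members 1 of 13 (7.69%, near the 7.34% of all genes). The difference between these shares was not tested. The rises were small, between 1.23-fold and 1.42-fold, and 34 of the 44 genes did not pass the test. The median log2 fold change was 0.03 over the cytosolic and 0.01 over the mitochondrial members, against -0.005 over all genes tested. In the same 10 genes every ODN library lay above every control library, and in 5 others, Hspa4, Hspa9, Dnaja2, Dnajb6 and Afg3l2, every ODN library lay below every control library without passing the test. Such separation upwards was seen in 13.2% and downwards in 11.3% of all genes tested.

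The count of cytosolic genes rests in part on single libraries and on which libraries enter the fit. It was 9 with all libraries, 3 (Hspa8, Cct4 and Cct5) without control replicate 3, the same 3 genes without ODN replicate 1, 5 without control replicate 2, and again Hspa8, Cct4 and Cct5 when the 6 control and ODN libraries were filtered, scaled and fitted alone (11437 genes tested). The share of all genes called fell at the same time from 10.6% to 6.72%, 6.33%, 7.08% and 5.23%. Scaled by library totals alone, 5 cytosolic genes were higher (Hspa8, Dnajc7, Cct4, Cct5 and Pfdn5) and 1, Dnajb6, was lower, and the calls over all genes were 49.1% higher in place of 69.3%. Hspa8, Hspe1, Cct4 and Cct5 were called under all 22 alternatives tried, with log2 fold changes of 0.44 to 0.65, 0.38 to 0.59, 0.44 to 0.59 and 0.36 to 0.47. Dnajc7 lost its call without control replicate 2 or 3 or ODN replicate 1 (adjusted p up to 0.0873 by edgeR), and Pfdn5 without control replicate 3 or ODN replicate 1 (up to 0.0961). Hsp90aa1 lost it without control replicate 3, ODN replicate 1 or 3 or IM156 replicate 2 (up to 0.168 by edgeR). Cct2 lost it without control replicate 2 or 3 or ODN replicate 1 or 2 (up to 0.112), and Tcp1 without those 4 or IM156 replicate 2 (up to 0.139). Tcp1 also lost its call with the replicate number added to the fit as a block. Pfdn1 kept its call in only 6 of the 22 alternatives. None of these genes changed direction.

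**Figure D1:**
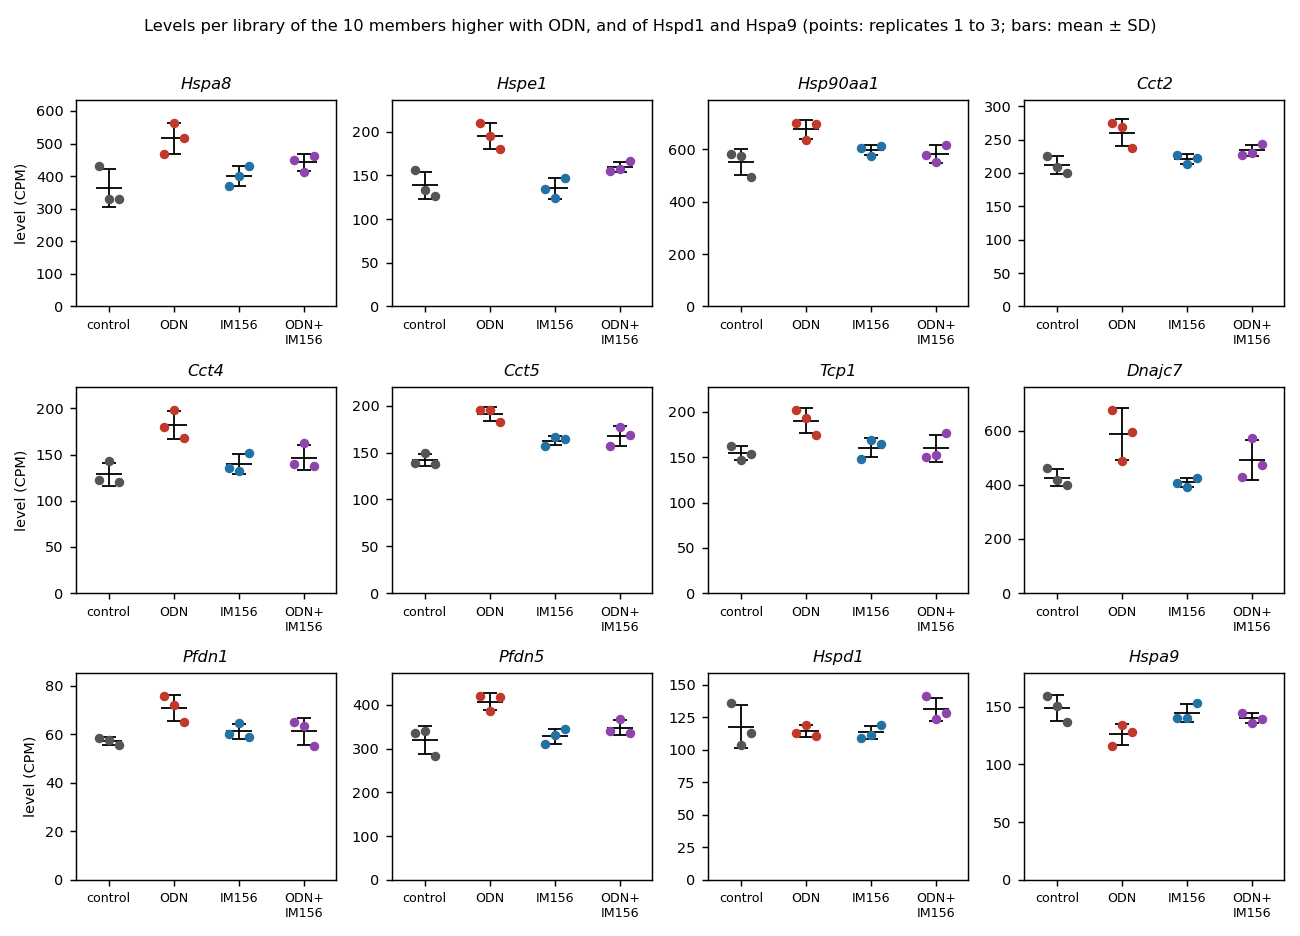
Level in CPM (vertical axis, from 0) of the 10 genes higher with ODN, and of the mitochondrial chaperone genes Hspd1 and Hspa9, in each of the 4 groups; points are replicates 1 to 3 from left to right, and bars are the mean ± SD of 3 libraries. In each of the first 10 panels the 3 ODN points lie above the 3 control points, whereas Hspd1 overlaps and Hspa9 lies lower.

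Hspa8 encodes the constitutive HSP70 of the cytosol and lies at chr9:40800984-40810087 on the plus strand (GRCm38). Its level was 430.4, 330.2 and 330.3 CPM in the 3 control libraries and 468, 563 and 518 CPM in the 3 ODN libraries, a log2 fold change of 0.51 (SE 0.107, adjusted p = 0.00406, edgeR). Control replicate 1 was the highest control, and even the lowest ODN library lay above it. In IM156 it was 370.1, 399 and 430.3 CPM and in ODN+IM156 449.7, 414 and 463 CPM, so the combined group overlapped with IM156 alone and lay wholly below ODN alone.

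Dnajc7, a J-domain protein with TPR repeats that contacts both HSP70 and HSP90, was at 462, 417 and 399 CPM in control and 678, 487 and 595 CPM in ODN (log2 fold change 0.46, SE 0.117, adjusted p = 0.0152, edgeR). ODN replicate 2 was the lowest of its group, yet still above all controls. The gene (chr11:100582818-100620168) shares exon bases with Cnp on the opposite strand, and its 3' end lies within Cnp. With no strand rule given in the sources used here, reads of shared stretches cannot be told apart. The levels of Dnajc7 were 408, 393 and 427 CPM in IM156 and 430.3, 574 and 471 CPM in ODN+IM156.

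The other 9 members of the HSP70 system did not pass the test. The HSP110 genes, whose products release ADP from HSP70, had log2 fold changes of -0.17 (Hspa4) and -0.21 (Hsph1) with ODN. Hspa4 was tightly measured at 273, 269 and 260.0 CPM in control and 238, 232 and 243 CPM in ODN, groups that did not overlap (adjusted p = 0.178, edgeR). Hsph1 scattered more, with 78.1, 55.2 and 58.8 CPM in control and 41.9, 53.3 and 70.2 CPM in ODN. Control replicate 1 and ODN replicate 3 were its high libraries; without ODN replicate 3 its log2 fold change was -0.43 and was called lower (adjusted p = 0.0497, edgeR). The client-delivering J-domain genes gave log2 fold changes of -0.05 (Dnaja1), -0.13 (Dnaja2), 0.11 (Dnajb1) and -0.27 (Dnajb6), and the ribosome-bound Dnajc2 gave -0.12. Dnajb1, a heat-inducible partner of HSP70, was at 60.5, 46.8 and 51.9 CPM in control and 46, 55.2 and 70.5 CPM in ODN, overlapping groups. The HSP70 regulators Bag1 and St13 had values of -0.10 and -0.13 on the log2 scale.

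In the HSP90 system 1 of 8 genes was called. Hsp90aa1, the inducible HSP90 (chr12:110690605-110702728, minus strand), was at 582, 576 and 493 CPM in control and 701, 635 and 695 CPM in ODN, with 604, 575 and 613 CPM in IM156 and 577, 551 and 618 CPM in ODN+IM156. The ODN effect was 0.30 on the log2 scale (SE 0.0881, adjusted p = 0.0347, edgeR). Its constitutive paralog Hsp90ab1 was at 2155, 1699 and 1773 CPM in control and 2460.5, 1687 and 2209.6 CPM in ODN, and the low ODN replicate 2 made those groups overlap (log2 fold change 0.18, adjusted p = 0.403, edgeR). None of the 6 co-chaperones passed the test. Their log2 fold changes were -0.11 for Stip1, which links HSP70 to HSP90, 0.01 for the ATPase activator Ahsa1, -0.07 for the p23 gene Ptges3, -0.14 for the immunophilin Fkbp4, 0.11 for the kinase adaptor Cdc37 and -0.01 for Chordc1. Stip1 and Fkbp4 each had 1 high control library, replicate 1, at 83.8 and 154 CPM, against 48.1 and 59.9 CPM and 92.1 and 101 CPM in the other 2; replicate 1 was the highest control for 29 of the 44 genes. The sign of both estimates turned with 1 library left out: over the 22 alternatives the log2 fold change ran from -0.28 to 0.13 for Stip1 and from -0.28 to 0.12 for Fkbp4, in both genes lowest without control replicate 2 and highest without control replicate 1.

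Of the 8 subunits of CCT, 4 were higher with ODN and none was lower. All 8 log2 fold changes were above 0 with a median of 0.21, but Cct3 and Cct8 were below 0 when libraries were scaled by their totals alone (-0.05 and -0.02), and Cct3 and Cct6a without ODN replicate 2 (-0.06 and -0.01). Cct4 (chr11:22990519-23003780, plus strand) was at 122, 143 and 121 CPM in control and 180.1, 199 and 168 CPM in ODN (log2 fold change 0.50, SE 0.0987, adjusted p = 0.00228, edgeR). Cct5 (chr15:31590800-31601804, minus strand) was at 139, 149 and 138 CPM in control and 196, 196 and 183 CPM in ODN (log2 fold change 0.43, SE 0.0804, adjusted p = 0.0016, edgeR). These groups were well apart, since the highest control of each gene stayed below the lowest ODN library.

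Cct2 was at 226, 209 and 199.9 CPM in control and 275, 269 and 237 CPM in ODN, and its log2 fold change was 0.30 (SE 0.0835, adjusted p = 0.0253, edgeR). Tcp1, the subunit that gave the complex its older name, was at 162, 147 and 153 CPM in control and 203, 193 and 175 CPM in ODN (log2 fold change 0.30, SE 0.0908, adjusted p = 0.0387, edgeR). Its 3' end overlaps Acat3 on the opposite strand. The other 4 subunits are built into the same rings, yet their log2 fold changes were 0.01 (Cct3), 0.09 (Cct6a), 0.12 (Cct7) and 0.05 (Cct8). None of the 4 passed the test, and the 95% intervals were -0.21 to 0.23 for Cct3 and -0.14 to 0.24 for Cct8. Whether subunits differed from one another in their response was not tested. Cct8 was at 352, 358 and 345 CPM in control and 356, 385 and 353 CPM in ODN, overlapping groups. Cct8, Cct6a and Cct7 overlap other genes (Usp16, Psph and Pradc1) on the opposite strand. In all, 13 of the 44 genes shared exon bases with a gene on the opposite strand. The 3' ends of 8 lay within another gene, among them Trap1, Dnaja1, Pfdn2 and Phb2.

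**Figure D2:**
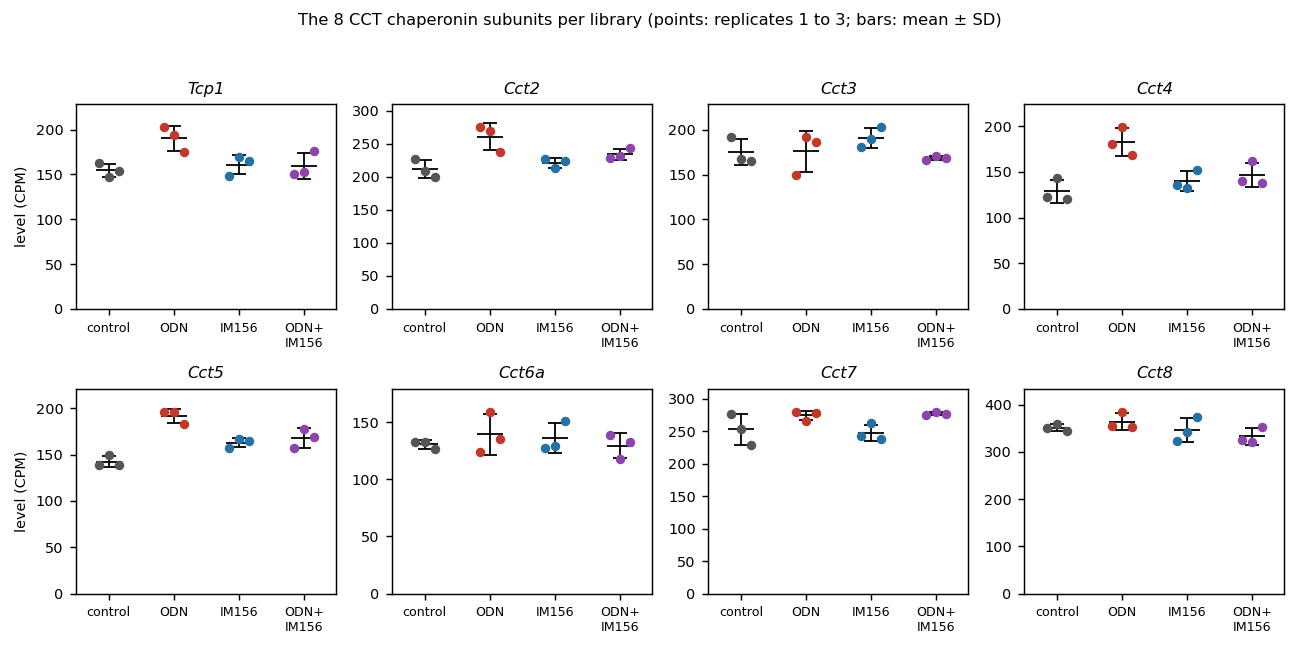
Level in CPM (vertical axes, from 0) of the 8 CCT subunit genes in the 4 groups; points are replicates 1 to 3, and bars are the mean ± SD of 3 libraries. Tcp1, Cct2, Cct4 and Cct5 show 3 ODN points above all control points, and the ODN points of Cct3, Cct6a, Cct7 and Cct8 overlap with control.

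Prefoldin, which feeds CCT, had 2 of 3 measured subunits called. Pfdn5 was at 337, 341 and 283 CPM in control and 420.1, 385 and 418 CPM in ODN (log2 fold change 0.35, SE 0.0895, adjusted p = 0.0155, edgeR). Pfdn1 was at 58.6, 57.5 and 55.5 CPM in control and 75.7, 71.9 and 65.3 CPM in ODN, with a log2 fold change of 0.31 and an adjusted p of 0.0483 in edgeR, just inside the threshold. Both are short by exon union, the number of bases covered by any annotated exon of the gene (1394 for Pfdn5 and 1109 for Pfdn1). With a correction for this length, which can exceed that of any single messenger, neither was called. The log2 fold changes became 0.23 (adjusted p = 0.083, edgeR) for Pfdn5 and 0.16 (adjusted p = 0.335, edgeR) for Pfdn1. Over all genes, those called higher had a median exon union of 3133.5 bases, against 4332 over the 11375 tested genes with a length. The 3' end of Pfdn5 also lies within Myg1 on the same strand, and these genes share exon bases. Pfdn2 was at 54.6, 60.0 and 50.3 CPM in control and 53.1, 47.7 and 58 CPM in ODN, fully overlapping.

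In mitochondria Hspe1, the HSP10 lid of the folding chamber, was the only member of 13 to pass. It was at 156, 133 and 127 CPM in control and 210.2, 195 and 180.0 CPM in ODN, a log2 fold change of 0.49 (SE 0.0958, adjusted p = 0.00215, edgeR). Hspd1 encodes HSP60, the chamber itself, and was at 136, 104 and 113 CPM in control and 113, 119 and 110.4 CPM in ODN; its log2 fold change was -0.04 (95% interval -0.27 to 0.18, adjusted p = 0.833, edgeR). All 3 ODN libraries of Hspd1 lay inside the range of the controls. The ratio of Hspe1 to Hspd1 CPM within a library was 1.15, 1.29 and 1.12 in control, 1.86, 1.64 and 1.63 in ODN, 1.24, 1.11 and 1.23 in IM156, and 1.10, 1.27 and 1.30 in ODN+IM156. The mean ratio was thus 1.19 ± 0.0879 (SD, n = 3) in control and 1.71 ± 0.131 in ODN, and the ODN libraries stood above the other 9. The ratio is one of 3'-end counts and was not calibrated against molecules. It was formed after the values were seen and carries no test. The annotation also names 5 pseudogenes after Hspd1 and 6 after Hspe1, between which and the parent gene reads could be split.

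Hspd1 and Hspe1 are read from a shared promoter region. They lie head to head on chromosome 1 in GRCm38, Hspd1 at chr1:55077835-55088243 on the minus strand and Hspe1 at chr1:55088132-55091307 on the plus strand, and their first exons overlap. Heat shock factors bind inverted repeats of the unit GAA, and a run of such units lies upstream of Hspe1 and of 1 of the 2 RefSeq starts of Hspd1. It is shown because the same bases lie before a gene that rose and before one that did not pass the test. Its place is chr1:55088053-55088082, and its letters are given 5′ to 3′ on the strand of each gene from RefSeq (GRCm38.p6), with the repeat units in capitals.
Hspe1, plus strand: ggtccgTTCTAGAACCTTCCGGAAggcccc
Hspd1, minus strand: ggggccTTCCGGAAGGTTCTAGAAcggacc
A run of 3 alternating units (GAANNTTCNNGAA or TTCNNGAANNTTC, either strand, matches may overlap) was found in the windows from 250 bases before to 50 after the start of 5 of 34 members with a RefSeq promoter, 14.7%, against 0.663% of 27018 RefSeq genes and 0.623% of the 8995 tested genes with a window. The other 3 were Dnajb6 (chr5:29735844-29735873), Hsph1 (chr5:149636279-149636308) and Chordc1 (chr9:18292260-18292289), printed on each gene's own strand for comparison.
Dnajb6, plus strand: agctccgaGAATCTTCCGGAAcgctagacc
Hsph1, minus strand: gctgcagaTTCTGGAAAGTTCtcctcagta
Chordc1, plus strand: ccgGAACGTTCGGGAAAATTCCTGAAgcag
With ODN the log2 fold changes of these 5 genes were 0.49 (Hspe1, called), -0.04 (Hspd1), -0.27 (Dnajb6), -0.21 (Hsph1) and -0.01 (Chordc1). Among the cytosolic members that rose, the windows of Cct2, Cct5, Tcp1, Dnajc7 and Pfdn5 were searched and held no run of 3 units, and Hspa8, Hsp90aa1, Cct4 and Pfdn1 were not searched. Pairs of units lay in a window of Cct2 (GAANNTTC) and of Cct5 (TTCNNGAA). Counting those within runs of 3, GAANNTTC was found in 23.5% and TTCNNGAA in 29.4% of the 34 members. The shares of the 8995 tested genes with a window were 7.15% and 8.56%. A match to letters is a description and no evidence of binding.

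Hsf1 itself, the factor that reads these elements, was at 36.1, 30.1 and 28.4 CPM in control and 19.7, 24.7 and 28.8 CPM in ODN, with 25.3, 28.9 and 27.2 CPM in IM156 and 21, 19.3 and 26.6 CPM in ODN+IM156. It had the most negative log2 fold change of the 44 with ODN, -0.37 (SE 0.154, adjusted p = 0.141, edgeR), which did not pass. ODN replicate 3 overlapped with the controls, and without that library the value was -0.51 and was called (adjusted p = 0.0387, edgeR). In ODN+IM156 every library lay below every control library, with a log2 fold change of -0.49 (adjusted p = 0.138, edgeR), again short of the threshold, and with no low-count filter it was called (adjusted p = 0.04, edgeR). The activity of this protein is known to be set mainly after translation.

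The other 3 mitochondrial chaperone genes did not pass the test either. Hspa9, the mitochondrial HSP70 that pulls proteins through the inner membrane, was at 159, 151 and 137 CPM in control and 116, 134 and 128 CPM in ODN, groups that did not overlap (log2 fold change -0.24, SE 0.0872, adjusted p = 0.0854, edgeR). Scaled by library totals alone, in which the median of all genes was shifted to -0.07 on the log2 scale, it was called lower (log2 fold change -0.31, adjusted p = 0.0419). The mitochondrial and the cytosolic HSP70 gene thus had estimates on opposite sides of 0. Trap1, the mitochondrial HSP90, had a log2 fold change of -0.01, and the J-domain gene Dnaja3 one of 0.04 at a mean level of 18.1 ± 2.58 (SD, n = 3) CPM in control.

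None of the 6 mitochondrial protease genes passed the test, and their median log2 fold change with ODN was -0.07. Lonp1, the main protease of the matrix, was at 33.5, 36.5 and 36.7 CPM in control and 38.6, 38.9 and 33.1 CPM in ODN. Clpp, the proteolytic chamber of ClpXP, was at 36.9, 33.1 and 28.1 CPM in control and 26.4, 30.4 and 31.5 CPM in ODN, and its unfoldase Clpx at 15.2, 18.7 and 13.7 and 15.5, 15.6 and 18.8 CPM. All 3 genes overlapped between the groups. The genes of the matrix-facing protease of the inner membrane had the most negative values, -0.34 for Afg3l2 and -0.29 for Spg7 on the log2 scale (adjusted p = 0.125 and 0.141, edgeR). Afg3l2 was at 40.7, 32.8 and 37.8 CPM in control and 24.1, 31.8 and 31.9 CPM in ODN, without overlap, whereas Yme1l1, which faces the other side of the membrane, had a log2 fold change of 0.01. The prohibitin genes, whose rings surround the matrix-facing protease, had values of 0.07 (Phb) and 0.23 (Phb2, adjusted p = 0.143, edgeR).

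**Figure D3:**
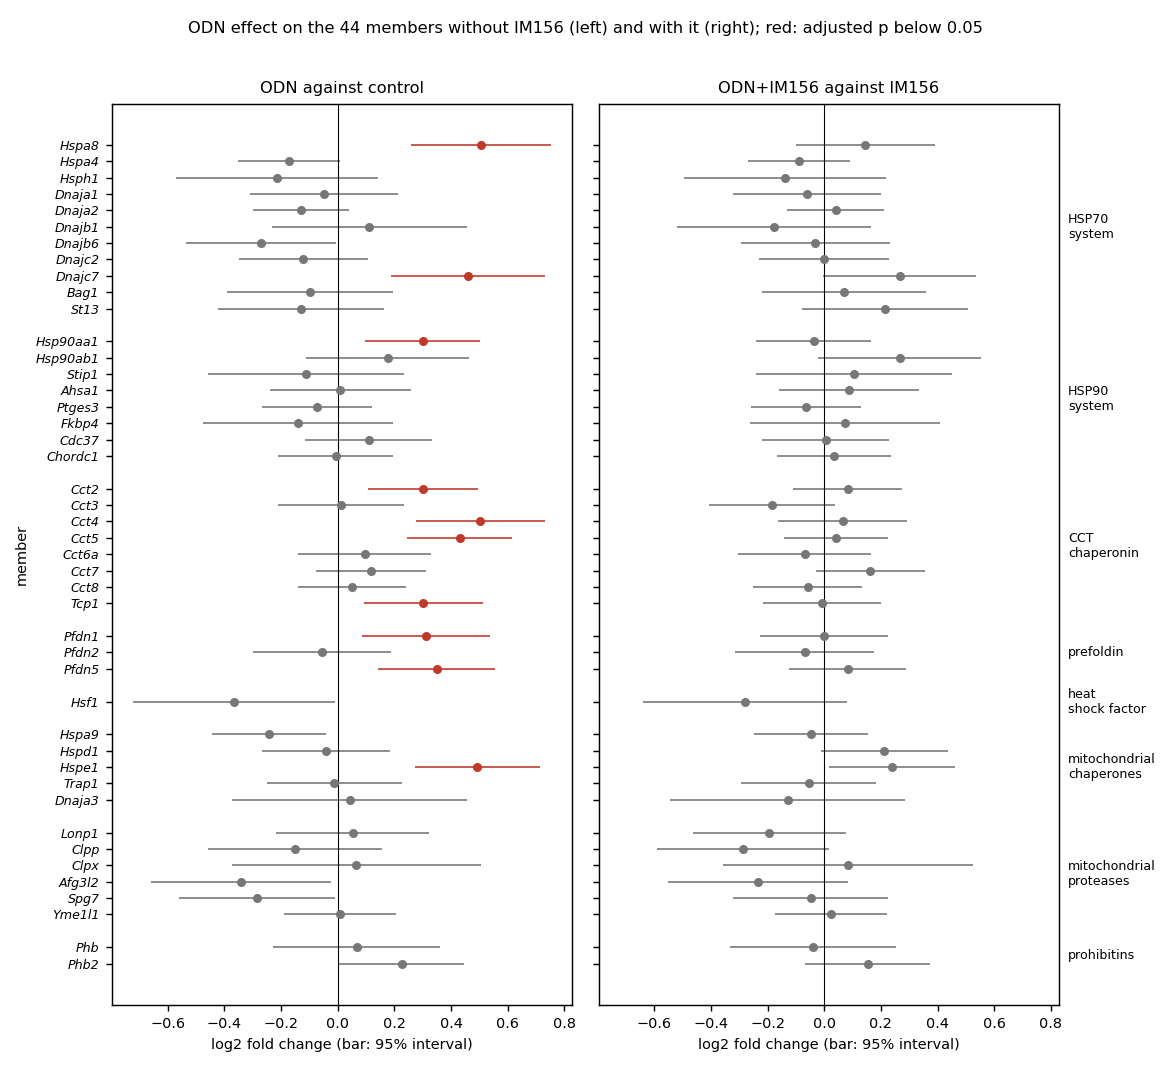
Log2 fold change (horizontal axes) with its 95% interval for each of the 44 genes, grouped by role, for ODN against control (left) and ODN+IM156 against IM156 (right); red marks an adjusted p below 0.05. The 10 red genes on the left lie between 0.30 and 0.51, and no gene is red on the right.

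The classes were also compared within each library, as the mean log2 CPM of the mitochondrial members minus that of the cytosolic members. This difference was -1.45, -1.41 and -1.44 in the control libraries and -1.56, -1.47 and -1.55 in the ODN libraries. ODN replicate 2 came close to the controls, but the groups did not overlap. The means were -1.43 ± 0.0227 in control and -1.53 ± 0.0519 in ODN, and with IM156 -1.41 ± 0.0243 alone and -1.47 ± 0.0415 in combination (SD, n = 3). ODN therefore lay below control, with a difference of -0.094 on the log2 scale, whereas the differences of 0.020 for IM156 against control, 0.058 for ODN+IM156 against ODN, -0.055 for ODN+IM156 against IM156 and -0.036 for ODN+IM156 against control came from overlapping groups. With the median over members in place of the mean these 5 differences were -0.16, 0.028, 0.19, 0.0082 and 0.036, so the latter 2 turned sign. Summed over the class, the cytosolic members held 6999 ± 550 CPM in control and 7906 ± 462 in ODN (SD, n = 3), and the mitochondrial members 951 ± 61.3 and 985 ± 15.3 CPM. Both sums overlapped between the groups. Control replicate 1 held 7629 cytosolic CPM against 7381 in ODN replicate 2, and its 1021 mitochondrial CPM exceeded every ODN library. No p was computed for these scores.

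**Figure D4:**
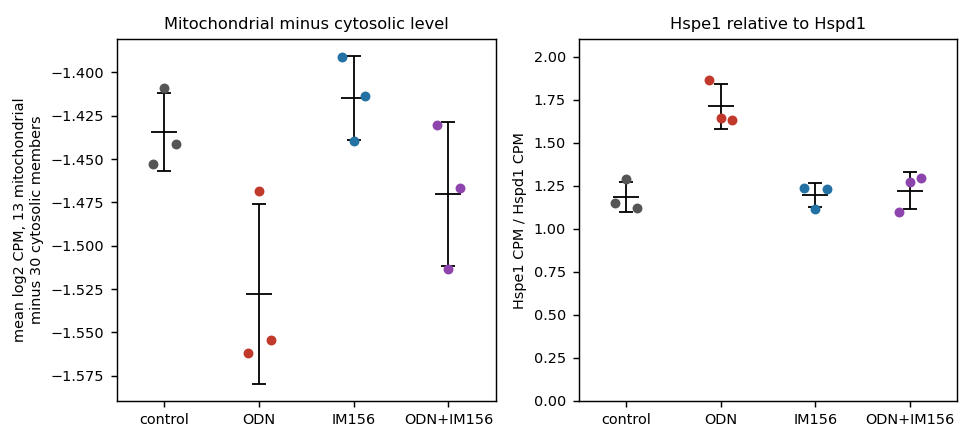
Left, mean log2 CPM of the 13 mitochondrial minus that of the 30 cytosolic genes in each library; right, Hspe1 CPM divided by Hspd1 CPM (axis from 0); points are replicates 1 to 3 and bars the mean ± SD of 3 libraries. The ODN group is lowest on the left, at a mean of -1.53, and highest on the right, at a mean of 1.71.

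With IM156 alone none of the 44 genes passed the test, and 0% of all genes tested were called (edgeR; 439 had an unadjusted p under 0.05, and DESeq2 called 2). Among the members 1 had an unadjusted p under 0.05, the CCT subunit Cct5, at 157, 167 and 165 CPM in IM156 (log2 fold change 0.20, SE 0.0805, adjusted p = 0.999, edgeR). The next were the protease genes Clpp at 0.23 and Lonp1 at 0.18 on the log2 scale, neither of which passed. Clpp was at 41.4, 39 and 35 CPM and Lonp1 at 40.2, 36.7 and 44.2 CPM in IM156; every IM156 library of Cct5, Lonp1 and Pfdn1 lay above every control, and every one of Dnaja2 below, 3 and 1 of 44 against 5.16% and 5.25% of all genes tested. Hspd1 and Hspe1 had log2 fold changes of -0.05 and -0.04, with 95% intervals of -0.28 to 0.17 and -0.26 to 0.18. The median log2 fold change was -0.01 for both the cytosolic and the mitochondrial members. These intervals bound the change of a messenger by its spread here, and they do not show that the inhibitor had no effect.

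Adding IM156 to ODN gave no call among the 44 genes, where 0.0675% of all genes tested were called (0.0506% higher and 0.0169% lower, 8 genes by edgeR; DESeq2 called 373, none of them a member). Of the 44, 11 had an unadjusted p under 0.05, as had 1919 of the 11857 genes tested. The smallest were those of Cct4, Hspe1 and Tcp1, all of which had been called higher against control from the same ODN libraries. Cct4 was at 139.5, 162 and 138 CPM in ODN+IM156 (log2 fold change against ODN -0.32, SE 0.0983, adjusted p = 0.111, edgeR). Hspe1 was at 155, 157 and 166 CPM (log2 fold change -0.29, adjusted p = 0.133, edgeR) and Tcp1 at 150.2, 153 and 177 CPM (log2 fold change -0.25, adjusted p = 0.168). Without ODN replicate 3 Cct4 was called lower, 1 cytosolic gene in place of 0, while the share of all genes called rose from 0.0675% to 6.57%.

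In 7 genes every ODN+IM156 library lay below every ODN library, namely Hspa8, Hspe1, Hsp90aa1, Cct4, Cct5, Pfdn1 and Pfdn5. In 5, Hspa9, Hspd1, Dnaja2, Spg7 and St13, every such library lay above. Over all genes tested these separations were seen in 10% and 9.07%. The 7 were all among the 10 genes called higher against control from these same ODN libraries. That choice favours lower values here, so the share over all genes is no like comparison for them. The chamber genes Hspe1 and Hspd1 separated in opposite directions: Hspd1 was at 141, 124 and 128 CPM in ODN+IM156 (log2 fold change against ODN 0.20, adjusted p = 0.32, edgeR). St13, a stabiliser of HSP70 bound to its client, was at 112, 95.8 and 115 CPM in ODN and 142, 131 and 130.2 CPM in ODN+IM156. Spg7, the partner of Afg3l2, was at 53.7, 52.5 and 41.8 CPM and 65.6, 58.1 and 58.6 CPM in the same 2 groups. Neither passed the test (adjusted p = 0.208 and 0.214, edgeR).

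ODN was compared again in mice that also received IM156, with libraries that the first comparison did not use. None of the 44 genes was called for ODN+IM156 against IM156, against 2.47% of all genes tested (1.74% higher and 0.734% lower). An unadjusted p under 0.05 was found for 5 of the 44 and for 1706 of the 11857 genes tested. The 10 genes higher with ODN alone were picked by their first values. That choice by itself favours smaller second values, so the drop is no measure of an effect of IM156. Their log2 fold changes without and with IM156 were 0.51 and 0.15 for Hspa8, 0.46 and 0.27 for Dnajc7, and 0.49 and 0.24 for Hspe1. For Cct4 they were 0.50 and 0.06, for Cct5 0.43 and 0.04, for Cct2 0.30 and 0.08, and for Tcp1 0.30 and -0.01. For Hsp90aa1 they were 0.30 and -0.04, for Pfdn5 0.35 and 0.08, and for Pfdn1 0.31 and 0.00. The members of smallest p were Hspe1 (adjusted p = 0.238), Dnajc7 (0.298) and Clpp (0.324, log2 fold change -0.29), all by edgeR. In 8 genes every ODN+IM156 library lay above every IM156 library, Hspd1, Hspe1, Cct2, Cct7, Dnajc7, Ahsa1, Phb2 and St13, and in 1, Cct3, every one lay below, against 12.8% and 11.8% of all genes tested.

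Whether IM156 altered the ODN effect was tested by an interaction term, which subtracts the IM156 against control difference from the ODN+IM156 against ODN difference. No member and 0% of all genes tested passed by edgeR (1453 had an unadjusted p under 0.05), so a different ODN response with IM156 was not shown for any of the 10 genes. Of the 44, 7 had an unadjusted p under 0.05, and all 7 were cytosolic. The smallest were Cct5 with -0.39 on the log2 scale (95% interval -0.65 to -0.13, adjusted p = 0.174), Cct4 with -0.44 (-0.76 to -0.12, adjusted p = 0.209) and Hsp90aa1 with -0.34 (-0.62 to -0.05, adjusted p = 0.277), all by edgeR. All of them had been called higher with ODN from the same ODN and control libraries. DESeq2 called Cct5, among 151 genes (1.27%). Hspe1 gave -0.25 and Hspd1 0.25 on the log2 scale, with adjusted p of 0.477 and 0.489 by edgeR.

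Against untreated controls the combined treatment called none of the 44 genes, where 1.59% of all genes tested were called (1.25% higher and 0.337% lower). An unadjusted p under 0.05 was found for 1529 of the 11857 genes tested and for 4 members. These 4 were Hsf1, given above, Cct5 with a log2 fold change of 0.24 (adjusted p = 0.18, edgeR), Hspa8 with 0.28 (adjusted p = 0.246) and Hspe1 with 0.20 (adjusted p = 0.386). Hspa8 was called when control replicate 1, its highest control, was left out, 1 cytosolic gene in place of 0, with 1.49% of all genes called. Every ODN+IM156 library of Cct2 and Cct5 lay above every control, and every one of Dnajb6 and Hsf1 below, 2 and 2 of 44 against 10.2% and 9.12% of all genes tested. Dnajb6 was at 67.5, 66 and 66.6 CPM in ODN+IM156 and 73.9, 71.6 and 72.3 CPM in control.

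Other genes of the same pathways were read from lists beside the 44. Of 49 tested cytosolic chaperones and co-chaperones 4 were higher and 1 was lower with ODN. That is 10.2% called, near the 10.6% of all genes tested. The 4 were Naca and Btf3, the subunits of the complex that meets new chains at the ribosome, with log2 fold changes of 0.59 and 0.53, Sugt1, an HSP90 co-chaperone, with 0.52, and Tbca, which binds beta-tubulin after CCT, with 0.47. The lower gene was the J-domain gene Dnajc21 (-0.44). Naca was at 196, 183 and 169 CPM in control, 289.8, 296 and 237 CPM in ODN and 208, 216 and 216 CPM in ODN+IM156. The inducible HSP70 genes Hspa1a and Hspa1b, near-identical copies between which reads can be split, had low levels. They were at 1.49, 0.272 and 0.968 and 1.29, 1.45 and 0.581 CPM in control and at 2.4, 0.945 and 2.77 and 3.33, 2.15 and 4.5 CPM in ODN, and neither was called (adjusted p = 0.226 and 0.102, edgeR).

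Of 25 other mitochondrial chaperones and proteases 2 were higher with ODN (8%, near the 7.34% called higher over all genes tested). They were Hscb, a J-domain protein of iron-sulfur cluster assembly, and Oxa1l, an insertase of the inner membrane. Hscb was at 22.2, 23.6 and 20.1 CPM in control, 36.9, 42.2 and 38.4 CPM in ODN and 29.5, 36.1 and 28.8 CPM in ODN+IM156. Oxa1l was at 69.7, 72.6 and 75.7, 105, 96.6 and 90.2 and 92.9, 93.5 and 92.7 CPM in the same groups. Both were also called for ODN+IM156 against control, with log2 fold changes of 0.52 and 0.36 (adjusted p = 0.0461 and 0.0426, edgeR), which none of the 44 was. Of all genes tested, 1.25% were called higher in that comparison. Among 8 regulators of heat shock and mitochondrial stress 2 were lower with ODN (25%, against 3.25% of all genes tested). They were Atf4, a factor of the integrated stress response, with a log2 fold change of -0.35, and Nfe2l1, a factor for proteasome genes, with -0.46. Of 17 genes that respond to cell handling 6 (35.3%) were also lower with ODN and none was higher. The summed level of the list was 2294 to 2589 CPM in control and 1702 to 1903 in ODN, and its part in the result was not tested.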

How the data were processed

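RNA of 12 libraries, 3 per group, was isolated with TRIzol and read from the 3' ends of transcripts with the Lexogen QuantSeq kit, per the labels' protocols. The authors deposited raw read counts per gene symbol. Per the submitters' processing notes the tools were Bowtie2, bedtools and edgeR on GRCm38 (mm10), and neither their versions nor the annotation or the use of strand in counting is given in the sources used here. A further 12 columns of normalized values and 4 of averages were deposited and not used here. In the table, 5883 of its rows have no count.

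The analysis used edgeR 4.0.16 (R 4.3.3) with filterByExpr, TMM factors, and 1 quasi-likelihood fit with 4 group means over 12 libraries (8 residual degrees of freedom). Tests were two-sided, in 6 comparisons, with Benjamini-Hochberg adjustment over all 11857 genes tested in each, and adjusted p below 0.05 made a call. Levels were taken as CPM of the scaled library, and 95% intervals use 8 degrees of freedom. Tested genes had a median of 258 counts per library. How much of the spread between libraries is counting error was not worked out for single genes. The script was tested on simulated counts. Class scores used log2 CPM with a prior count of 2. DESeq2 1.42.0 and the other alternatives are in the closing section. Genes were placed with GENCODE on GRCm38, and promoter windows came from RefSeq for 34 of 44 members. Libraries were not treated as paired by replicate number, since correlations of same-numbered libraries showed no pairing, though these cannot exclude one.

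The members, the gene lists and the comparisons were chosen with earlier results of these data known. Named with values are the members with a central role, every member called, the 3 of smallest p where none was, and up to 6 called genes of each related list.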

Additional observations from a re-analysis of the deposited data

How the results depend on the processing

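Of the 12 counts of called members (cytosolic and mitochondrial, 6 comparisons), those listed here moved by over 1.5 times or changed in split. For ODN against control the cytosolic count of 9 became 3 with only the groups compared, 6 (5 higher, 1 lower) with library totals alone, and ranged from 3 to 9 with 1 library left out, while the mitochondrial count of 1 was 1 with only the groups compared and with 1 library left out, and became 2 with library totals alone (Hspa9 added, lower). Library totals alone also moved the split of all calls from 69.3% higher to 49.1% higher. The cytosolic count for ODN+IM156 against ODN went from 0 to 2 with no low-count filter (Cct4 lower, St13 higher; 3.82% of all genes called against 0.0675%) and ranged from 0 to 1 with 1 library left out; for ODN+IM156 against control that range was also 0 to 1. It went from 0 to 1 for ODN+IM156 against IM156 with only the groups compared (Hsp90ab1; 7.76% of all genes against 2.47%), and for the interaction with DESeq2 (Cct5). The causes were not tested. With the replicate number as a replicate block the ODN counts were 8 cytosolic and 1 mitochondrial. Correlations of same-numbered libraries lay between -0.100 and 0.079, and those of other pairs across groups between -0.090 and 0.120. The numbers thus showed no pairing by this measure, which cannot exclude one. The mitochondrial minus cytosolic difference became -0.16 (ODN against control), 0.19 (ODN+IM156 against ODN), 0.036 in place of -0.036 (ODN+IM156 against control) and 0.0082 in place of -0.055 (ODN+IM156 against IM156) with the median over members, and -0.016 in place of 0.020 (IM156 against control) and -0.071 (ODN+IM156 against control) with summed CPM. With 1 library left out it ranged from -0.12 to -0.077 (ODN against control), 0.0078 to 0.032 (IM156 against control), 0.038 to 0.088 (ODN+IM156 against ODN), -0.056 to -0.014 (ODN+IM156 against control) and -0.075 to -0.034 (ODN+IM156 against IM156). The correction for exon-union length was chosen after seeing the data and left 7 cytosolic calls. No called gene changed sign. Counts from 3' ends bear on messenger, not on protein.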
